A study of Mus musculus with 10 samples.

Results

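The vacuolar ATPase (V-ATPase) is a rotary proton pump that acidifies lysosomes, endosomes, the Golgi and synaptic vesicles, and in some epithelia it also sits in the plasma membrane and secretes acid. A cytosolic V1 sector hydrolyses ATP on its A and B subunits, and a membrane V0 sector carries protons past its a subunit. Several subunits are encoded by more than 1 gene, and the isoforms differ in the cells that use them. Human mutations of the B1 and a4 isoforms cause distal renal tubular acidosis with hearing loss, since these isoforms belong to the pumps of acid-secreting epithelial cells, including cells of the inner ear. Synaptic vesicles need the same pump to load transmitter, which makes subunits such as a1 abundant in neurons.

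The 10 genes described here were chosen by name from the 54532 genes in the count files. They are Atp6v1a, Atp6v1b1, Atp6v1b2, Atp6v1c1 and Atp6v1e1 of the V1 sector, and Atp6v0a1, Atp6v0a2, Tcirg1, Atp6v0a4 and Atp6v0d1 of the V0 sector. All 10 were found, and all 10 passed the filter on low counts. RNA came from the cochlea of 12-month-old mtKeima mice, a transgenic line of mixed genetic background that carries a pH-dependent fluorescent reporter in its mitochondria and, by the study's genotyping, normal Cdh23 and Nnt alleles. In the NR-treated group, 5 mice had taken nicotinamide riboside, a precursor of NAD+, at 7 mg/ml (24 mM) in their water since the age of 2 months, for 10 months, and the 5 non-treated mice, labelled Vehicle, had drunk regular water. The libraries held 17060379 to 24419230 counted reads.

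The labels call the mice female and the study's methods call them male. Summed over 4 Y-linked genes, the level was 179 to 209.6 CPM (reads of a gene scaled to the effective size of its library) in every library, and Xist had 2 to 8 reads. By these values all 10 libraries came from male mice, as the study's methods state. Cochlear genes such as Coch and Otos were present in all libraries, with 4136 to 8208 CPM summed over 10 markers, and 8 of these 10 were lower in NR-treated mice at an unadjusted p of 0.05, while without Vehicle replicates 3 and 4 it was 0 of 10, with 1 higher. These 2 libraries had the highest levels of cochlear and hair cell markers and the lowest of neuron markers. Values without them are given beside many of the results below. By the mean squared standardized difference of gene counts, every other library was farthest from Vehicle replicate 2, at 79.7 to 129. No other pair differed by more than 60.5, and Vehicle replicates 3 and 4 differed from each other by 19.3. Of 9 tested skeletal muscle markers 6 were higher in NR-treated mice at an unadjusted p of 0.05. Their median log2 fold change was 2.92 (Acta1 at 89.7 CPM in NR-treated and 3.71 CPM in non-treated mice). Of 9 tested adipocyte markers 8 were higher, with a median of 2.36. Of all tested genes, 4.83% were higher and 4.88% lower at an unadjusted p of 0.05 in edgeR. Without Vehicle replicates 3 and 4, 4 of 10 muscle markers (median 2.51) and 7 of 10 adipocyte markers (median 2.03) were higher at that p. The adipocyte list holds Cidec, Plin1 and Pck1, which the study named among its most changed genes in these libraries, so this count is not independent of that report. In RNA of a whole organ, fewer cells of a type and less RNA per cell cannot be told apart.

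RefSeq promoter windows of 300 bases (GRCm38.p6, the same assembly as mm10) were matched for 7 of the 10 genes, and the sequences below are shown because they hold letters read by regulators of lysosomal genes or of acid-secreting cells. Capitals mark the palindrome TCACGTGA, which holds the E-box CACGTG read by the lysosomal regulator TFEB and its relatives. It begins 132 bases before the RefSeq start of Atp6v1a (chr16:44139373-44139402, minus strand), inside the annotated gene, which ends at 44139705. In Atp6v0d1 it begins 4 bases before the RefSeq start and spans that start (chr8:105566050-105566079, minus strand).
Atp6v1a: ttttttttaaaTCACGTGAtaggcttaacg
Atp6v0d1: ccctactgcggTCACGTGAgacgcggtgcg
Of all 32851 promoter windows, 0.974% held TCACGTGA and 7.15% held CACGTG, and of the 7 matched members only Atp6v1a and Atp6v0d1 held either, while Tcirg1, Atp6v0a1 and Atp6v1e1 held neither. In the next sequence capitals mark TGTTTAC, the reverse complement of GTAAACA, a core read by forkhead factors, the family of Foxi1. It begins 98 bases before the RefSeq start of Atp6v1b1, in the bases that precede the annotated gene (chr6:83742767-83742989, plus strand).
Atp6v1b1: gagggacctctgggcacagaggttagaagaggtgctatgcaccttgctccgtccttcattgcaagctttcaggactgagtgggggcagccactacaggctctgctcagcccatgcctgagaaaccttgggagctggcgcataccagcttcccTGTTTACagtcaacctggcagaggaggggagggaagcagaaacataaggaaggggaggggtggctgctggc
On both strands, 3.65% of all windows held this core, and Atp6v1b1 was the 1 matched member with it, so that the window of Atp6v0a4 lacked these letters. The GC box GGGCGG, searched on both strands, was in windows of Atp6v0a1, Atp6v1e1 and Tcirg1 and in 35.7% of all windows. These are matches of letters and do not show that a factor binds there.

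The subunit genes fell into 2 ranges of level. Per kilobase of exon, with the gene lengths of the files, Atp6v0d1, which joins the rotor to the central stalk, was the highest at 89.0 ± 3.63 CPM per kilobase (SD, n = 10). It was followed by the B subunit gene Atp6v1b2 at 66.4 ± 6.81, the peripheral stalk gene Atp6v1e1 at 56.4 ± 3.74, the neuronal a isoform Atp6v0a1 at 53.6 ± 4.31 and the catalytic subunit gene Atp6v1a at 43.6 ± 3.52 CPM per kilobase. Tcirg1, the a3 isoform that osteoclasts use to dissolve bone, was at 23.1 ± 3.83 CPM per kilobase. The stalk gene Atp6v1c1 was at 17.6 ± 0.875 CPM per kilobase and Atp6v0a2, the a isoform of the Golgi and endosomes, at 11.8 ± 1.26. Atp6v1b1 and Atp6v0a4 were far below, at 0.357 ± 0.306 and 0.239 ± 0.113 CPM per kilobase.

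**Figure D1:**
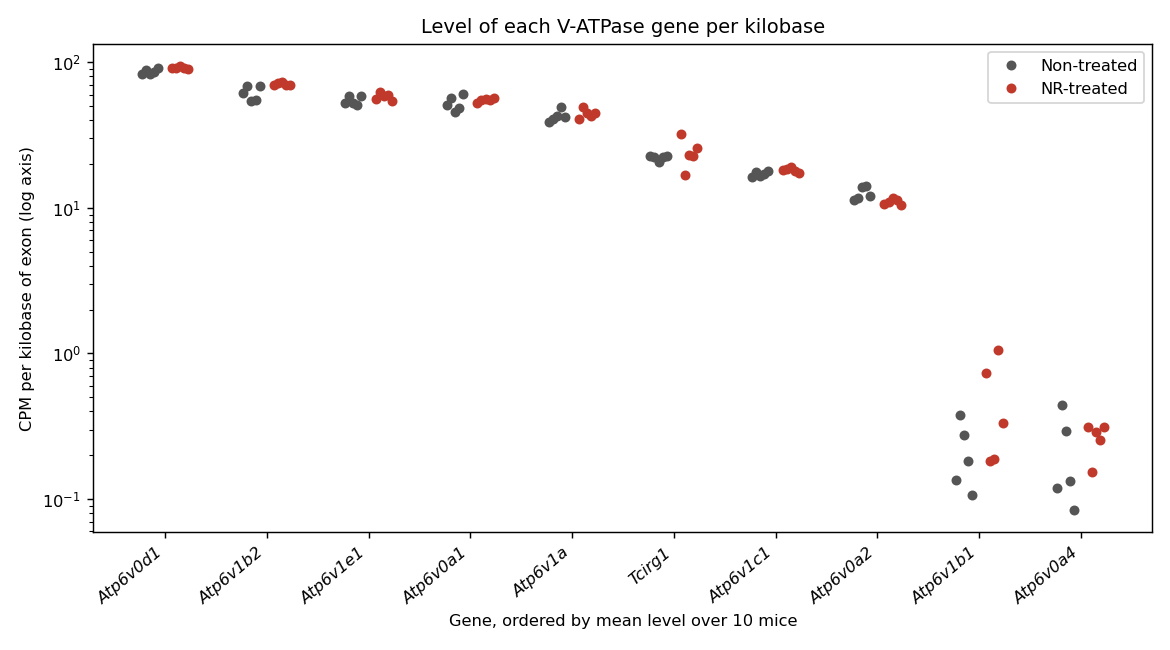
Level of each gene in CPM per kilobase of exon on a log axis, with 1 point per mouse, grey for non-treated and red for NR-treated. 8 genes lie between 10.5 and 94.0 CPM per kilobase in every mouse, while Atp6v1b1 and Atp6v0a4 lie between 0.0840 and 1.06.

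In this order the ranges over the 10 mice did not overlap between Atp6v0d1 and Atp6v1b2, between Atp6v1a and Tcirg1, between Atp6v1c1 and Atp6v0a2, or between Atp6v0a2 and Atp6v1b1. All other neighbours overlapped, and Atp6v1b1 lay above Atp6v0a4 in 7 of 10 mice. With the length of the longest coding transcript in place of the files' length, a choice made after the data were seen, Atp6v1e1 ranked highest at 177 CPM per kilobase, ahead of Atp6v1b2 at 125 and Atp6v0d1 at 97.9. The last 3 places did not change. Between 0.154% and 1.49% of the B isoform level per kilobase was Atp6v1b1, and the rest was Atp6v1b2. Of the 4 a isoforms, Atp6v0a1 made 55.1% to 66.2% of the level per kilobase in single mice, Tcirg1 20.4% to 33.5%, Atp6v0a2 11.1% to 17.3% and Atp6v0a4 0.0884% to 0.485%.

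The next question was whether the pump genes differed between NR-treated and non-treated cochlea. At an adjusted p of 0.05 in edgeR's quasi-likelihood test, 0 of the 10 genes passed, as did 0% of all 18329 tested genes. At an unadjusted p of 0.05, 3 of 10 passed in either direction, against 9.71% of all tested genes. Atp6v1b2 and Atp6v1b1 were higher in NR-treated mice, against 4.83% of all tested genes in that direction, and Atp6v0a2 was lower, against 4.88%. The DESeq2 Wald test called 105 genes at an adjusted p of 0.05, with 0 of the 10 among them, and Atp6v0d1 joined the higher ones by its unadjusted p. Of all 33153 genes with a p in that test, 1162 were higher and 1021 lower at an unadjusted p of 0.05. The median log2 fold change of the 10 genes was 0.09, beside -0.01 over all tested genes, and 9 of 10 had a value above 0, as had 47.1% of all tested genes. Without Vehicle replicates 3 and 4, the count above 0 was 8 of 10 and 0 of 10 passed at an unadjusted p of 0.05. Of all 18671 genes tested in that fit, 767 were higher and 1042 lower at that p. Apart from Atp6v1b1 and Atp6v0a4, the log2 fold changes lay between -0.20 and 0.20.

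**Figure D2:**
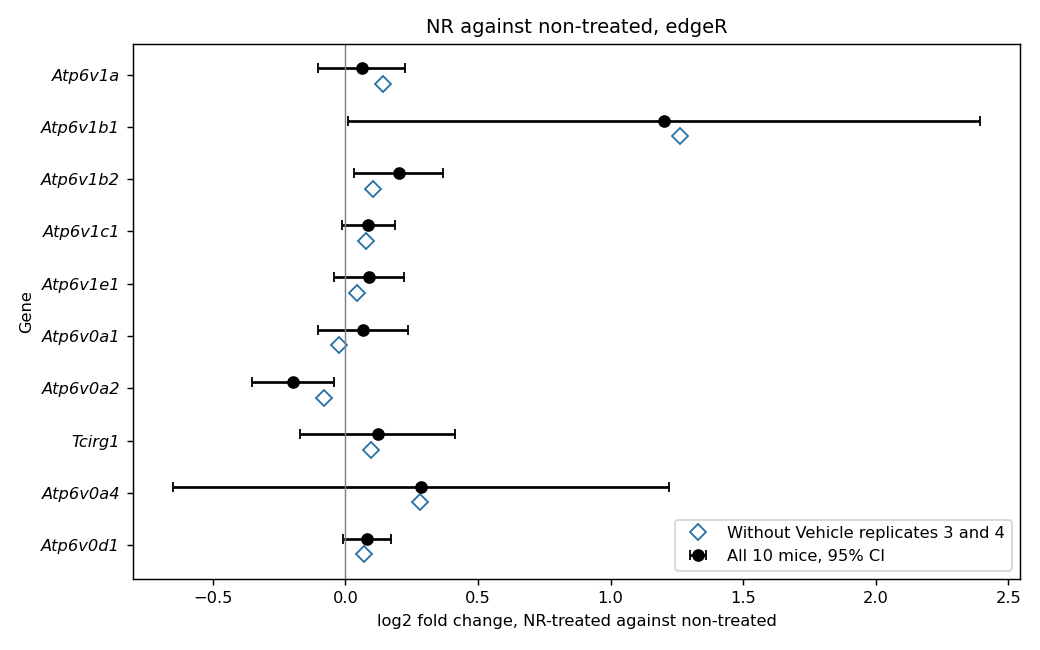
Log2 fold change of each gene in NR-treated against non-treated mice from edgeR, with black points and bars for all 10 mice and their 95% confidence intervals, and open diamonds for the fit without Vehicle replicates 3 and 4. The intervals of Atp6v1b2 and Atp6v1b1 lie above 0 and that of Atp6v0a2 below, and without both libraries Atp6v1b2 moves from 0.20 to 0.10 and Atp6v0a2 from -0.20 to -0.08.

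Atp6v1b2 (ENSMUSG00000006273, mm10 chromosome 8 from 69088646 to 69113711) encodes the B2 subunit, the B isoform of neurons and most other cells. Its level in NR-treated mice 1 to 5 was 368.2, 384, 388, 369 and 372 CPM, and in non-treated mice 1 to 5 it was 325, 365, 289, 294 and 365 CPM. The groups did not overlap, with 368.2 CPM as the lowest NR-treated and 365 CPM as the highest non-treated value, and 1.65% of all tested genes had groups apart in either direction. NR-treated mice averaged 376.5 ± 9.16 CPM and non-treated mice 328 ± 36.8 CPM (SD, n = 5 each). This gave a log2 fold change of 0.20 in edgeR, with a standard error of 0.08, an unadjusted p of 0.0227 and, after adjustment over all genes, an adjusted p of 0.473. The spread of the non-treated mice came mostly from Vehicle replicates 3 and 4, the lowest of the 10 libraries. Without both, the log2 fold change was 0.10 with an unadjusted p of 0.126 in edgeR, and without Vehicle replicate 3 alone the unadjusted p was 0.0527. Leaving out any other single mouse gave an unadjusted p from 0.00638, without Vehicle replicate 2, to 0.0475, without Vehicle replicate 4.

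**Figure D3:**
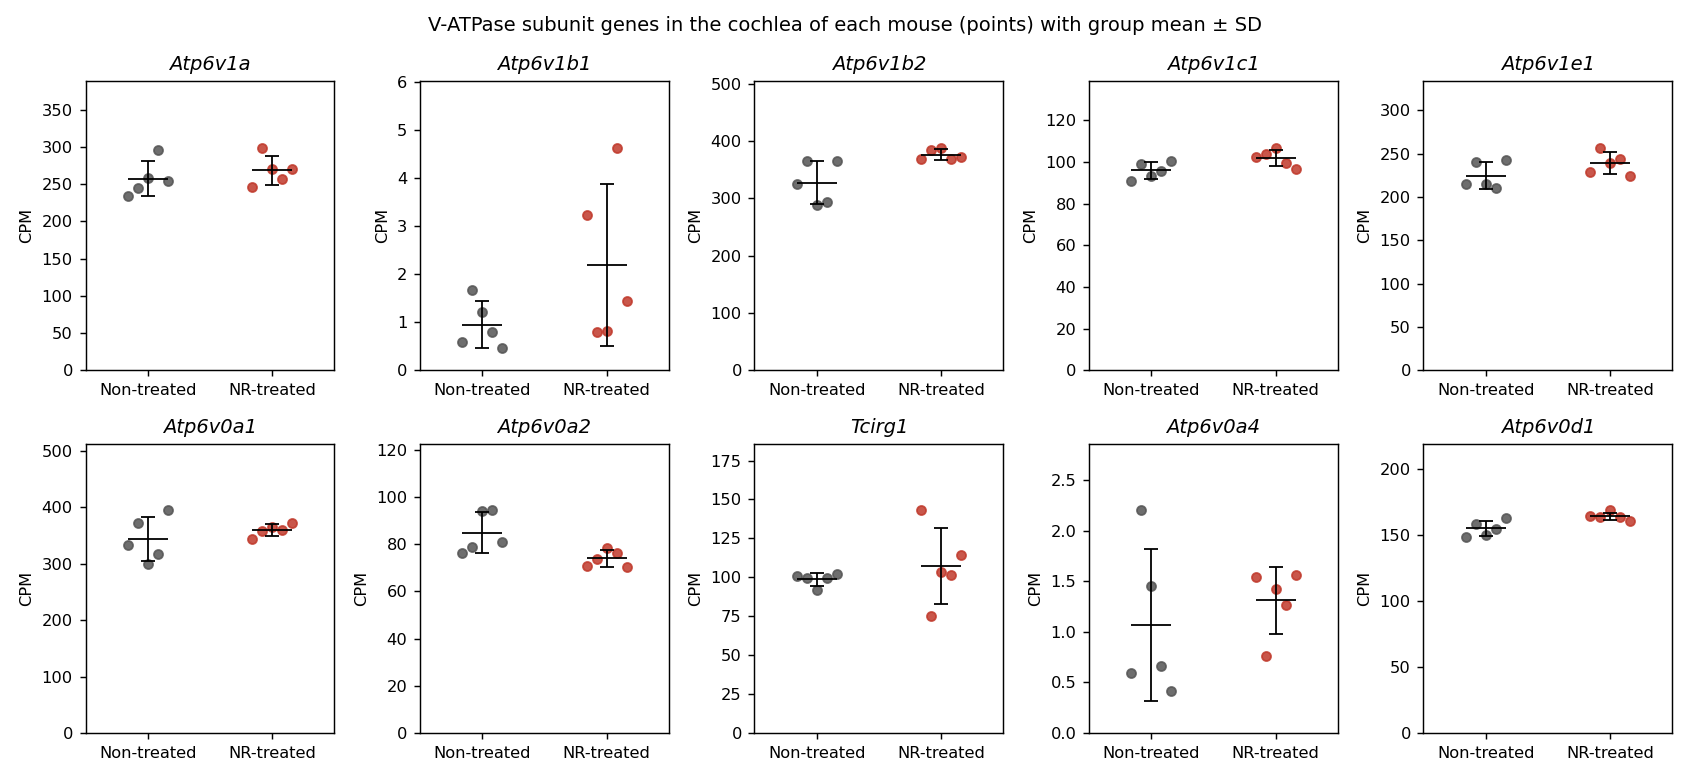
CPM of each of the 10 genes in every mouse (points), with the mean and SD of each group of 5 in black and each axis starting at 0. Atp6v1b2 is the 1 gene whose groups do not overlap, Atp6v1b1 is spread widely among NR-treated mice from 0.805 to 4.63 CPM, and Tcirg1 from 75.4 to 143 CPM.

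Levels of neuron markers moved with Atp6v1b2. Summed over 10 genes such as Snap25, Nefl and Tubb3, neuron markers were at 5866 to 6587 CPM in NR-treated mice and at 4232 to 6468 CPM in non-treated mice, with the lowest values in Vehicle replicates 3 and 4. Of these 10 markers, 4 were higher and 1 was lower in NR-treated mice at an unadjusted p of 0.05, and 2 and 1 without both libraries. Over the 10 mice, Atp6v1b2 on the log2 scale followed the log2 of this sum with a Pearson r of 0.97 (permutation p = 3.40e-04, adjusted over 6 relations p = 0.00102) and a Spearman rho of 0.77 (permutation p = 0.0127, adjusted p = 0.0254). Without Vehicle replicates 3 and 4, the mice farthest from the median, r was 0.86. The part of neuron content in the difference between the groups was not tested.

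Atp6v0a1 (ENSMUSG00000019302, chromosome 11 from 101009452 to 101063719) encodes the a1 subunit of synaptic vesicles and lysosomes. NR-treated mice 1 to 5 had 344, 359, 365, 359 and 372 CPM, and non-treated mice had 333, 372, 300.1, 317 and 394 CPM. The groups overlapped, and the highest and the lowest library were both non-treated. Its log2 fold change was 0.07 (standard error 0.08, unadjusted p = 0.400, adjusted p = 0.783 in edgeR), and it was -0.022 without Vehicle replicates 3 and 4. It followed the neuron markers too, with an r of 0.93 (permutation p = 1.60e-04, adjusted p = 9.60e-04) and a rho of 0.78 (permutation p = 0.0105, adjusted p = 0.0254), or an r of 0.76 without these 2 libraries. These relations were chosen after values had been seen, and with 5 mice a group none was computed within a group.

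Atp6v0a2 (ENSMUSG00000038023, chromosome 5 from 124628576 to 124724455) was the 1 gene of the 10 with a level below that of non-treated mice. NR-treated mice 1 to 5 had 71.0, 73.7, 78.4, 76.4 and 70.4 CPM, and non-treated mice had 76.3, 78.7, 94.0, 94.4 and 80.9 CPM. The values of 3 NR-treated mice were lower than any in the non-treated group, and Vehicle replicates 3 and 4 were the highest. This gave a log2 fold change of -0.20 in edgeR, with a standard error of 0.07, an unadjusted p of 0.0170 and, after adjustment over all genes, an adjusted p of 0.458. Without Vehicle replicates 3 and 4 it was -0.08 with an unadjusted p of 0.161 in edgeR. Leaving out Vehicle replicate 3, Vehicle replicate 4 or NR replicate 5 alone gave unadjusted p-values of 0.0585, 0.0544 and 0.0506. Any other single omission gave an unadjusted p from 0.00701, without Vehicle replicate 1, to 0.0477, without NR replicate 1, in edgeR. Against the neuron markers its r was -0.72 (permutation p = 0.0232, adjusted p = 0.0279) with a rho of -0.16 (permutation p = 0.657, adjusted p = 0.657), and without Vehicle replicates 3 and 4 r was 0.36, so that the negative relation rested on these 2 libraries. An antisense gene, 4930404A12Rik, overlaps 9.86% of its exonic bases and had 0 reads in every library.

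**Figure D4:**
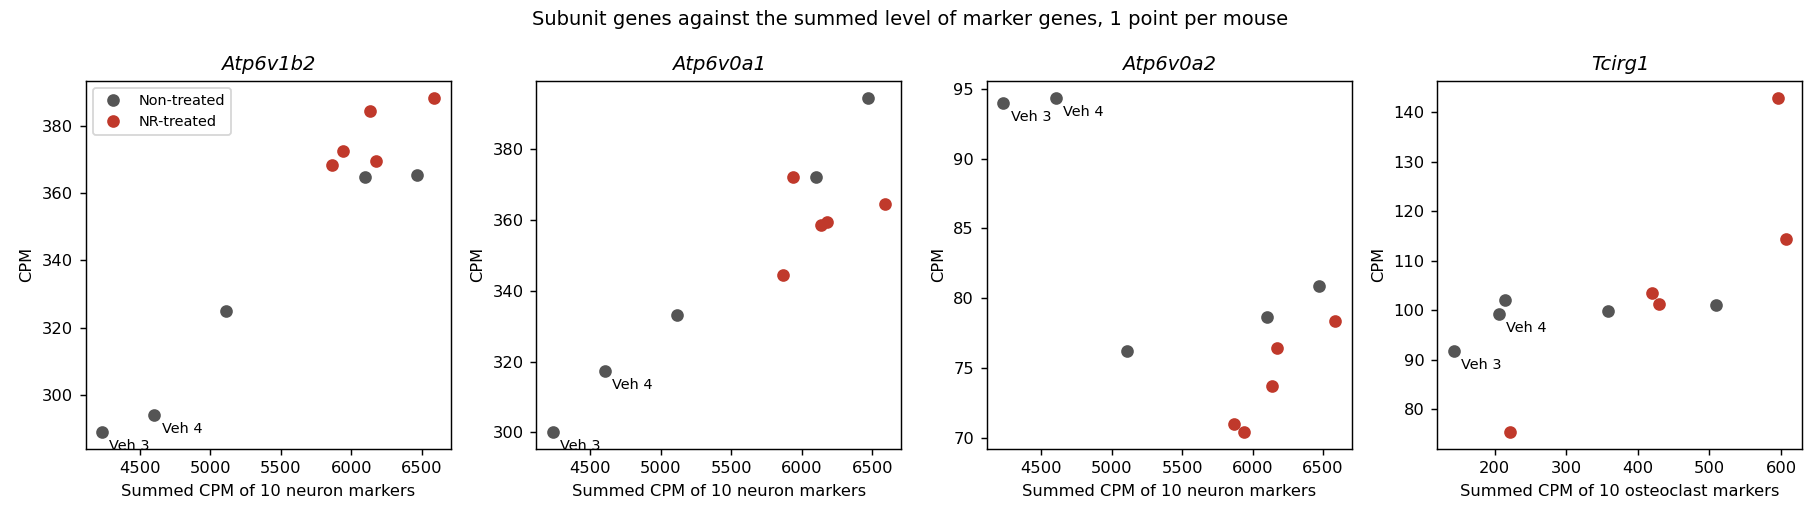
CPM of Atp6v1b2, Atp6v0a1 and Atp6v0a2 against the summed CPM of 10 neuron markers, and of Tcirg1 against the summed CPM of 10 osteoclast markers, with 1 point per mouse, grey for non-treated and red for NR-treated. Vehicle replicates 3 and 4 sit at the low end of the neuron axis, where Atp6v1b2 and Atp6v0a1 are lowest and Atp6v0a2 is highest.

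Atp6v1b1 (ENSMUSG00000006269, chromosome 6 from 83742990 to 83758855), the deafness-linked B isoform, rested on few reads, 10 to 106 per library. NR-treated mice 1 to 5 had 3.23, 0.805, 0.822, 4.63 and 1.45 CPM, and non-treated mice had 0.596, 1.66, 1.21, 0.794 and 0.464 CPM. NR replicates 1 and 4 exceeded the whole non-treated range, and the other 3 NR-treated mice lay within the non-treated range. NR-treated mice averaged 2.19 ± 1.69 CPM and non-treated mice 0.946 ± 0.490 CPM (SD, n = 5 each). In edgeR the log2 fold change was 1.20 ± 0.54 (standard error), its 95% confidence interval ran from 0.0087 to 2.39, and p was 0.0486 before and 0.512 after adjustment. Without NR replicate 4 the log2 fold change was 0.73, with an unadjusted p of 0.180, and without NR replicate 1 it was 1.03 with an unadjusted p of 0.107 in edgeR. Leaving out Vehicle replicate 1, 3, 4 or 5 alone also gave unadjusted p-values above 0.05, from 0.0551 to 0.101, and without Vehicle replicates 3 and 4 together it was 0.105. Leaving out NR replicate 2, 3 or 5 or Vehicle replicate 2 alone gave unadjusted p-values from 0.0219 to 0.0469 in edgeR.

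Atp6v0a4 (ENSMUSG00000038600, chromosome 6 from 38048483 to 38124586), the deafness-linked a isoform, had 9 to 49 reads per library. NR-treated mice 1 to 5 had 1.54, 0.761, 1.43, 1.27 and 1.56 CPM, and non-treated mice had 0.596, 2.20, 1.46, 0.661 and 0.418 CPM. The NR-treated values lay within the range of the non-treated ones. Its log2 fold change of 0.29 had a standard error of 0.42 and a 95% confidence interval from -0.65 to 1.22, or 0.638-fold to 2.33-fold, and the difference was not larger than the spread between mice (unadjusted p = 0.514, adjusted p = 0.835 in edgeR). Without Vehicle replicate 2 it was 0.73 (unadjusted p = 0.0792), without Vehicle replicate 1, 4 or 5 it was 0.14, 0.15 and 0.09, and without Vehicle replicate 3 or NR replicate 2 it was 0.43 in edgeR. Exons of D630045J12Rik and Tmem213 overlap 6.45% of its exonic bases, and reads there could not be assigned to 1 gene.

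Atp6v1b1 and Atp6v0a4 varied together among the mice. Over all 10, Pearson's r of log2 CPM was 0.67 (permutation p = 0.0335, adjusted over 6 relations p = 0.0335) and Spearman's rho was 0.78 (permutation p = 0.0109, adjusted p = 0.0254). Without NR replicates 1 and 4, the mice farthest from the median of Atp6v1b1, r was 0.93. Leaving out NR replicate 2 or Vehicle replicate 1, 4 or 5 alone gave r of 0.66, 0.63, 0.65 and 0.57 with permutation p-values of 0.0550, 0.0705, 0.0556 and 0.109. Vehicle replicate 2 was the highest of the non-treated mice in both genes and Vehicle replicate 5 the lowest. Varying together was not particular to this pair. Over all 10 mice, r was 0.945 for Atp6v1c1 with Atp6v0d1 and 0.86 for Atp6v1b2 with Atp6v0a1, with no p computed. Of all tested genes, those whose log2 CPM was most like that of Atp6v1b1 over the 10 mice were Vill (r = 0.94, rho = 0.94), Inhbb (r = 0.90, rho = 0.81), Tpcn2 (r = 0.90, rho = 0.94), Abcc1 (r = 0.90, rho = 0.93) and Sp3os (r = 0.89, rho = 0.78). For Atp6v0a4 they were Ccl12 (r = 0.93, rho = 0.87), Pitx1 (r = 0.90, rho = 0.79), Mrpl17 (r = 0.90, rho = 0.90), Cd86 (r = 0.89, rho = 0.87) and Gm12474 (r = 0.89, rho = 0.90). These were picked as the highest of 18329 genes, so they describe these 10 mice and carry no p. Foxi1, the forkhead factor of acid-secreting inner ear cells, had 5 to 20 reads per library and differed by -0.32 on the log2 scale (standard error 0.33, adjusted p = 0.759 in edgeR).

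Tcirg1 (ENSMUSG00000001750, chromosome 19 from 3896050 to 3907133) averaged 107 ± 24.4 CPM over NR-treated mice and 98.8 ± 4.10 CPM over non-treated mice (SD, n = 5 each). NR-treated mice 1 to 5 had 143, 75.4, 104, 101 and 114 CPM, and non-treated mice had 101, 99.8, 91.7, 99.2 and 102 CPM. Both the highest and the lowest library were NR-treated, and the groups overlapped (log2 fold change 0.12, standard error 0.13, adjusted p = 0.770 in edgeR). Without NR replicate 2, the lowest, the log2 fold change was 0.23 (unadjusted p = 0.0345, adjusted p = 0.345), and without NR replicate 1, the highest, it was 0.01 (unadjusted p = 0.959). Osteoclast markers such as Ctsk and Acp5 summed to 222 to 607 CPM in NR-treated and 143 to 509 CPM in non-treated mice. Of their 8 tested genes, 4 were higher in NR-treated mice at an unadjusted p of 0.05. Ctsk was among them, with a log2 fold change of 0.94. Without Vehicle replicates 3 and 4, the 1 of 10 tested that was higher was Oscar (log2 fold change 2.31, unadjusted p = 0.00262 in edgeR). It had 3 to 29 reads per library. In that fit Ctsk was at 0.66 on the log2 scale (unadjusted p = 0.0524 in edgeR). Oscar and Calcr had too few reads to be tested over all 10 mice, and Calcr had 0 reads in NR replicate 2 and Vehicle replicates 2 and 3. Over the 10 mice Tcirg1 followed the osteoclast sum with an r of 0.67 (permutation p = 0.0227, adjusted p = 0.0279) and a rho of 0.73 (permutation p = 0.0204, adjusted p = 0.0305), and r was 0.73 without the 2 mice farthest from the median. Against macrophage markers r was 0.88 (permutation p = 0.00836, adjusted p = 0.0167), but rho was 0.52 (permutation p = 0.135, adjusted p = 0.162) and r was 0.06 without NR replicates 1 and 2, so that this relation rested on those mice. The part of either cell type in the level of Tcirg1 was not tested.

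The other 4 genes are ubiquitous subunits. Over the 10 mice, the r of log2 CPM with Atp6v1b2 was 0.85 for Atp6v0d1, 0.83 for Atp6v1e1 and 0.77 for Atp6v1c1. For Atp6v1a it was -0.01. The relation of these 4 genes to the neuron markers was not tested. Atp6v1a, the catalytic subunit, ranged from 247 to 299 CPM in NR-treated and from 234 to 297 CPM in non-treated mice, with a log2 fold change of 0.06. Atp6v1c1 ranged from 96.6 to 107 CPM and from 90.7 to 101 CPM, with a log2 fold change of 0.09. Atp6v1e1 ranged from 225 to 257 CPM and from 210 to 242 CPM, with a log2 fold change of 0.09. In each of these 3 genes the groups overlapped. Atp6v0d1 ranged from 161 to 169 CPM and from 149 to 163 CPM, and 4 of 5 NR-treated mice exceeded the highest non-treated mouse. Its log2 fold change was 0.08 (standard error 0.04, 95% confidence interval -0.0069 to 0.17, unadjusted p = 0.0672, adjusted p = 0.542 in edgeR). Without Vehicle replicate 2 or 5 the unadjusted p of Atp6v0d1 was 0.0498 and 0.0335, and without NR replicate 5 that of Atp6v1c1 was 0.0431 in edgeR. The intervals of Atp6v1a, Atp6v1c1 and Atp6v1e1 ended at 0.22, 0.19 and 0.22 on the log2 scale. Without Vehicle replicates 3 and 4, Atp6v1a had a log2 fold change of 0.14 (unadjusted p = 0.0712 in edgeR) and its interval ended at 0.30.

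To contrast isoforms of the same subunit within each mouse, log2 ratios of their counts were compared between the groups with exact two-sided permutation tests, and p-values were adjusted over the 4 ratios. The ratio of Atp6v1b1 to Atp6v1b2 differed by 0.78 (exact p = 0.262, adjusted p = 0.519), with NR replicates 1 and 4 higher than the non-treated group. Leaving out 1 mouse moved this difference between 0.41, without NR replicate 4, and 1.05, without NR replicate 2. The ratio of Atp6v0a4 to Atp6v0a1 differed by 0.44 (exact p = 0.389, adjusted p = 0.519), and by between 0.13, without Vehicle replicate 5, and 0.73, without Vehicle replicate 2. The ratio of Atp6v0a2 to Atp6v0a1 averaged -2.28 ± 0.07 in NR-treated mice and -2.02 ± 0.28 in non-treated mice (SD, n = 5 each), which gave a difference of -0.27 (exact permutation p = 0.0952, adjusted p = 0.381), and all 5 NR-treated mice lay below the non-treated median. Vehicle replicates 3 and 4 had the highest values, and without both the difference was -0.06. The ratio of Tcirg1 to Atp6v0a1 differed by 0.02 (exact p = 0.897, adjusted p = 0.897). No ratio differed by more than the spread between mice, with a smallest possible p of 0.00794.

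**Figure D5:**
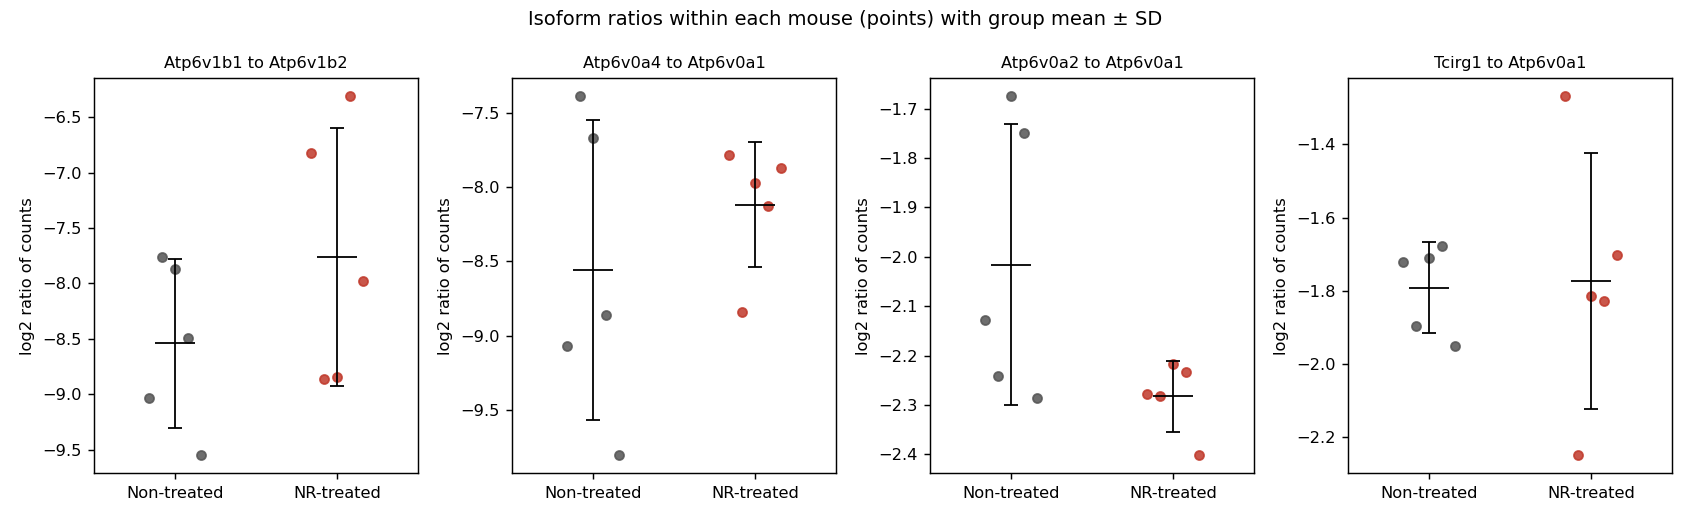
Log2 ratio of the counts of pairs of isoforms in every mouse (points), with the mean and SD of each group of 5 in black. For Atp6v0a2 to Atp6v0a1 the NR-treated mice lie between -2.40 and -2.22 and the non-treated mice between -2.29 and -1.68, and in all 4 panels the groups overlap.

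Of 16 further subunit and accessory genes of the pump, 14 were tested. At an adjusted p of 0.05, 0 of 14 passed in edgeR. At an unadjusted p of 0.05, 2 were higher and 0 lower, against 4.83% and 4.88% of all tested genes. The 2 higher genes were Atp6v0e2, of the V0 sector, and Atp6v1h, a regulatory V1 subunit. Atp6v0e2 was at 0.14 on the log2 scale (standard error 0.05, unadjusted p = 0.0137, adjusted p = 0.444 in edgeR). Its groups did not overlap, which held for 1.65% of all tested genes in either direction. Atp6v1h had 0.16 (standard error 0.06, unadjusted p = 0.0160, adjusted p = 0.455). Atp6v1g2, the G isoform of neurons, had 0.25 (standard error 0.13, unadjusted p = 0.0710). The most abundant, the accessory gene Atp6ap1, averaged 295 CPM in each group, and the proteolipid gene Atp6v0b had a log2 fold change of -0.01. The median of the 14 was 0.03. Without Vehicle replicates 3 and 4, 1 of 14 was higher at an unadjusted p of 0.05, and 0 were lower. This was Atp6v0e2, at 0.13 on the log2 scale (unadjusted p = 0.0302 in edgeR). In that fit Atp6v1h was at 0.13 (unadjusted p = 0.0729) and Atp6v1g2 at 0.11 (unadjusted p = 0.343) on the log2 scale in edgeR. Atp6v1e2 had 0 reads in all libraries, and Atp6v1g3 had 0 to 31 reads and was not tested.

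Among 9 genes for assembly and regulation of the pump, 1 was higher and 0 were lower at an unadjusted p of 0.05. Of all tested genes, 4.83% were higher and 4.88% lower at that p. The higher gene was Oxr1, a TLDc-domain gene, with a log2 fold change of 0.20 (adjusted p = 0.488 in edgeR). Without Vehicle replicates 3 and 4, Oxr1 was at 0.22 (unadjusted p = 0.0222 in edgeR). Dmxl1 and Ccdc115, next by p, were at -0.10 (unadjusted p = 0.106) and 0.12 (unadjusted p = 0.200) on the log2 scale. Dmxl2, a part of the rabconnectin complex that joins the sectors, was at 95.1 and 95.3 CPM in NR-treated and non-treated mice. Of 30 lysosomal genes, 0 were called in either direction at an unadjusted p of 0.05, with 12 above and 18 below 0 and a median log2 fold change of -0.03, and without Vehicle replicates 3 and 4 with 17 above and 13 below 0 and a median of 0.02. The smallest p-values belonged to Sgsh, Naglu and Hexa, at -0.22, -0.10 and 0.13 on the log2 scale, with adjusted p of 0.586, 0.673 and 0.719 in edgeR. Psap and Ctsb, the most abundant of these, had log2 fold changes of 0.03 and -0.06.

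Genes of acid-base transport lay mostly below 0 over all 10 mice. Of 15 tested, 12 had a log2 fold change below 0, with a median of -0.17. At an unadjusted p of 0.05, 1 was lower, against 4.88% of all tested genes. Without Vehicle replicates 3 and 4, 7 of 15 were below 0, the median was 0.0010, and 3 were lower at an unadjusted p of 0.05, Car2 among them. The lower gene over all 10 mice was Car2, carbonic anhydrase 2, at 694 CPM in NR-treated and 947 CPM in non-treated mice (log2 fold change -0.45, standard error 0.13, unadjusted p = 0.00603, adjusted p = 0.423 in edgeR), and its value was -0.55 (adjusted p = 0.296) without these 2 libraries. The bicarbonate transporter gene Slc4a10 had -0.41 (adjusted p = 0.527 in edgeR). Slc4a11, the most abundant, had -0.32 (standard error 0.21), and Slc26a4, the pendrin gene that is also linked to deafness, had -0.37 (standard error 0.29, adjusted p = 0.684). Without both libraries these values were -0.18 for Slc4a10, -0.04 for Slc4a11 and 0.17 for Slc26a4. Markers of strial marginal cells moved in the same direction, with 10 of 10 below 0, or 6 of 10 without Vehicle replicates 3 and 4, summing to 792 to 1294 CPM in NR-treated and 1099 to 2582 CPM in non-treated mice, and those of strial intermediate and pigment cells summed to 350.5 to 667 and 661 to 1364 CPM. Their part in the levels of the transport genes was not tested.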

How the data were processed

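Per the labels and the study's methods, poly(A) libraries were sequenced as paired-end reads by Novogene, aligned to mm10 with STAR 2.6.1d (2 mismatches) and counted with featureCounts 1.5.0 in default mode, without strand. The deposited values are raw counts per gene, 1 library per sample, and gene lengths; the annotation release is not given in the sources used here, and the 10 members had the same coordinates in GENCODE M21. The labels number the replicates, the study's methods describe cochleae of 5 mice a group, and p-values measure the spread between these samples.

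Genes kept by filterByExpr (18329) were tested with edgeR 4.0.16 (R 4.3.3; TMM, quasi-likelihood, no covariate; Benjamini-Hochberg over all tested genes). CPM used TMM effective library sizes, log2 CPM a prior count of 2, and isoform ratios counts plus 0.5. Standard errors came from the quasi-likelihood F. Correlations used 100000 permutations. No 2 libraries had equal counts within sampling noise. The edgeR fit was tested on simulated data with known changes, drawn from the means and sizes of these libraries. Alternatives were DESeq2 1.42.0 and its size factors, other filters, robust dispersions, a block for the replicate number, leaving out samples, and another length; pathway and marker lists without Vehicle replicates 3 and 4 were added after the data were seen.

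Named genes were all members and, of each pathway list, the 3 with the smallest p and the 2 with the highest level, plus the 5 genes most like Atp6v1b1 and Atp6v0a4, genes at 0 and Foxi1, Slc26a4, Atp6v1g3, Ctsk and Acta1, chosen after values were seen. A gene that this rule names is not reported here. The members and lists were chosen with earlier results of these data known.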

Additional observations from a re-analysis of the deposited data

Results flagged for a closer look

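Among 28 groups of 5 values, from 10 genes and 4 ratios in 2 groups, 1 held a mouse far from the others by Dixon's test, and chance gives about 1 in 20. This was Tcirg1 in Vehicle replicate 3, at 91.7 CPM, while the other non-treated mice lay between 99.2 and 102 CPM.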

How the results depend on the processing

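The count of members at an adjusted p of 0.05 was 0 in all 17 alternative fits, with 0.237 as the smallest adjusted p. The count of higher members at an unadjusted p of 0.05 was 1 with the replicate block and 0 without Vehicle replicates 3 and 4, and it ranged from 0 to 3 when 1 replicate was left out. The count of lower members was 0 without Vehicle replicates 3 and 4 and ranged from 0 to 1 when 1 replicate was left out. With the replicate block, 879 of all 18329 tested genes were higher and 776 lower at that p. When 1 replicate was left out, between 669 of 18495 (NR replicate 3) and 1414 of 18586 (NR replicate 2) were higher. Between 484 of 18495 (NR replicate 3) and 1059 of 18535 (Vehicle replicate 1) were lower. With the replicate block, Atp6v1b1 had an unadjusted p of 0.152. The deviations of same-numbered mice from their group means correlated between -0.22 and 0.17, and only number 1 was its own best partner. These correlations cannot show whether same-numbered samples were handled together. Of 169 alternative log2 fold changes of members, 168 kept their direction, and that of Atp6v0a1 was -0.022 without Vehicle replicates 3 and 4. The difference in the ratio of Tcirg1 to Atp6v0a1 ranged from -0.11 to 0.14 when 1 replicate was left out, with values below 0 without NR replicate 1 or Vehicle replicate 2 or 5, and r of Atp6v1b1 with Atp6v0a4 from 0.57 to 0.80. The causes were not tested. The filter of at least 10 reads in all samples left no value for Atp6v0a4. Atp6v1b1 and Atp6v0a4 had 9 to 106 reads per library, and their coefficients of variation were 77.1% and 25.1% in NR-treated and 51.8% and 70.2% in non-treated mice.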
